A study of Mus musculus with 9 samples.

Results

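Hox genes encode homeodomain transcription factors that lie in the Hoxa, Hoxb, Hoxc and Hoxd clusters, and here they were followed in Balb/c-3T3 mouse fibroblasts carrying an active oncogene. All probesets whose only annotated symbol was Hoxa, Hoxb, Hoxc or Hoxd followed by a number were taken, which gave 48 probesets of 33 genes among 45037 probesets and 18193 genes. The Hoxa cluster had 16 probesets of 9 genes, Hoxb 11 of 9, Hoxc 11 of 7 and Hoxd 10 of 8, and 11 genes had several probesets. Another 3 probesets carried several Hox symbols and were not used. Hox genes without such a probeset were not analysed here.

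The 3 lines were a stable Balb/c-3T3 transfectant of v-Src (plasmid pMvSrc), a stable transfectant of STAT3-C (plasmid pRc/CMV-STAT3C), and untransfected Balb/c-3T3 cells as the control. v-Src is an oncogenic tyrosine kinase that keeps STAT3 active and also drives other pathways, and STAT3-C is a STAT3 mutant that dimerizes without tyrosine phosphorylation. Each line had 3 arrays, with RNA pooled from dishes of 1 passage on each array and the arrays of a line taken at consecutive passages, so p-values measure the spread between passages of a single line and not between independently made lines. Whether a transfected line was 1 clone or a pool of transfectants is not given in the sources used here, and what differs between these lines for reasons other than the transgene cannot be told apart from its effect. Array medians lay between 6.27 and 6.39 on the log2 scale, and arrays of 1 line correlated at 0.9896 to 0.995 across probesets, which are not independent replicates. The endogenous Src probesets were called in neither transfected line. Stat3 probeset 1460700_at was 1.30 higher on the log2 scale with v-Src (adjusted p = 0.000504) and 0.72 higher with STAT3-C (adjusted p = 0.00827). Stat3 probeset 1426587_a_at was 1.53 higher with v-Src (adjusted p = 0.000537) but not called with STAT3-C (0.24, adjusted p = 0.291). Stat3 probesets 1424272_at and 1459961_a_at were called in neither line. Where the Src and Stat3 probesets lie relative to the transgenes is not known here.

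In the embryo, Hox genes are switched on in the order in which they lie along each cluster, so that the combination a cell expresses records its place along the body axis. Adult fibroblasts keep much of that combination for many divisions, held in place by Polycomb (repressing) and Trithorax (activating) chromatin complexes, and the low-numbered genes of a cluster mark head and neck levels while the high-numbered ones mark the trunk end and the distal limb. Hox proteins choose their sites together with TALE homeodomain cofactors of the Pbx and Meis families, and retinoic acid is a main inducer of the clusters.

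RMA, the method behind the deposited log2 values, gives no detection call. A probeset was therefore taken as above background in a line when all 3 of its arrays exceeded the array's 95th percentile over 79 probesets of chemosensory receptor genes, which fibroblasts do not normally transcribe. That level lay between 7.01 and 7.38 on the log2 scale. By this rule 10 of the 48 Hox probesets were above background in v-Src cells and 8 in STAT3-C cells, against 19 in control cells. As genes, 8 had a probeset above background in v-Src cells and 6 in STAT3-C cells, against 15 in control cells. Over all probesets the order was the other way round, with 34.3% above background in v-Src cells and 33.8% in STAT3-C cells, against 30.6% in control cells.

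No Hox probeset was above background in a transfected line without being so in the control line. The 8 probesets above it in all 3 lines were Hoxa3 1452421_at, both of Hoxa5, Hoxa7, Hoxa9 1421579_at, Hoxc6 1427362_x_at and 1427361_at, and Hoxc9. Hoxc8 and Hoxb3 1427605_at were above it in v-Src and control cells but not in STAT3-C cells. The 9 probesets above it in control cells only belonged to Hoxa9 (1455626_at), Hoxa10, Hoxb3 (1456229_at), Hoxb6, Hoxb9, Hoxc4, Hoxc10, Hoxc13 and Hoxd9. The other 29 probesets were above it in no line, and 18 genes had no probeset above it anywhere. By cluster, v-Src, STAT3-C and control cells had 5, 5 and 7 Hoxa probesets above background, 1, 0 and 4 of Hoxb, 4, 3 and 7 of Hoxc, and 0, 0 and 1 of Hoxd.

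**Figure D1:**
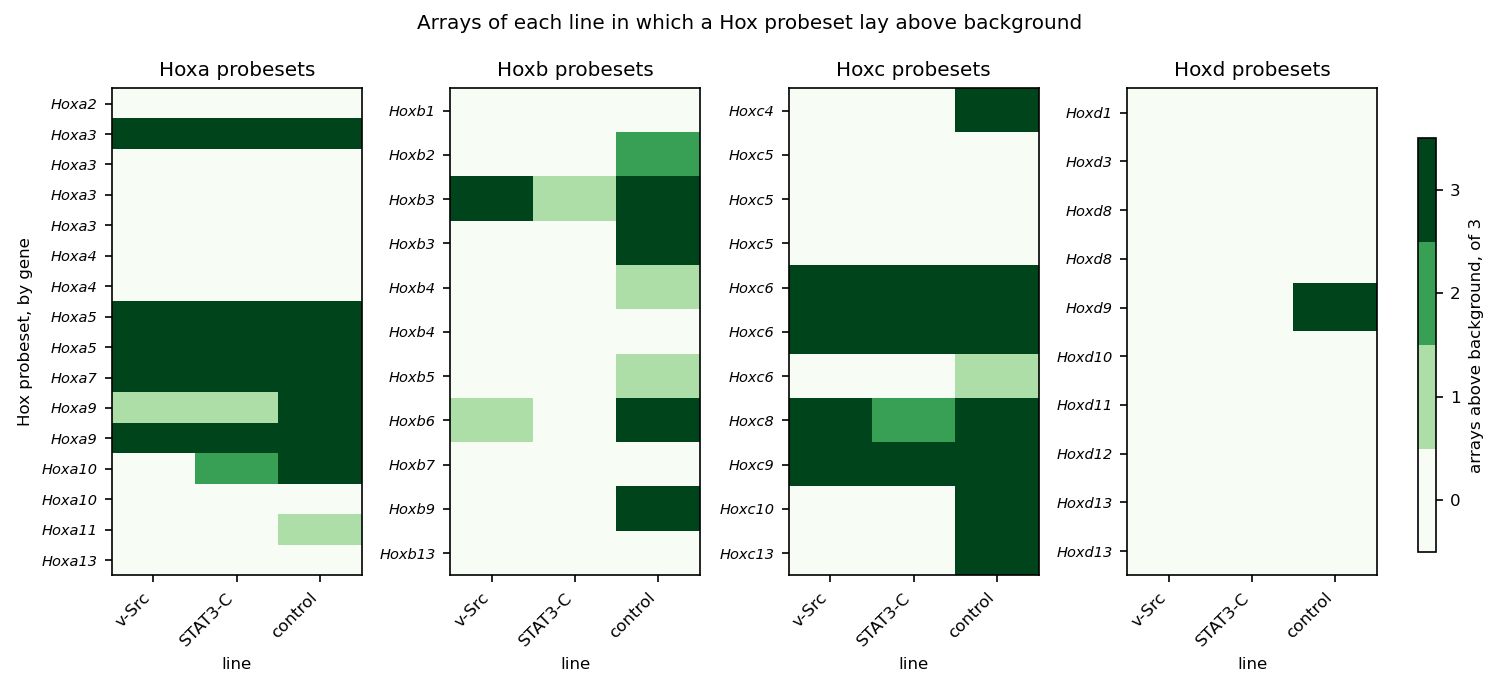
Arrays of v-Src, STAT3-C and control cells in which each Hox probeset lay above background, with 1 panel per cluster and 1 row per probeset. The colour gives the number of arrays, from 0 to 3. With all 3 arrays above it, the Hoxa count was 5 in v-Src and in STAT3-C cells against 7 in control cells. The Hoxb count was 1 and 0 against 4, and the Hoxc count 4 and 3 against 7.

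A difference was called when the Benjamini-Hochberg adjusted p of limma, over all 45037 probesets, was under 0.05 and the fold was at least 1.5. Between v-Src and control cells, 23 of 48 Hox probesets (47.9%) were lower in v-Src cells and 0 were higher, whereas 8.1% of all probesets were called lower and 8.75% higher (16.8% in either direction). The median log2 fold change was -0.50 over the Hox probesets and 0.03 over all probesets. Counted once per gene, by the probeset with the highest mean, 18 of 33 Hox genes (54.5%) were lower with v-Src and 0 were higher, against 10.4% and 9.54% of all genes. In 30 of the 48 probesets all v-Src arrays lay below all control arrays, which was so for 19.9% of all probesets, and in 5 they lay above, against 24.1%. The 25 Hox probesets that were not called had log2 fold changes of -0.50 to 0.36 with v-Src.

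Between STAT3-C and control cells, 21 of 48 Hox probesets (43.8%) were lower in STAT3-C cells and 2 were higher, against 8.58% and 9.68% of all probesets (18.3% in either direction). The median log2 fold change was -0.45 over the Hox probesets and 0.02 over all probesets. By gene, 17 of 33 (51.5%) were lower and 1 was higher, against 10.3% and 11.9% of all genes. All STAT3-C arrays lay below all control arrays in 28 probesets and above them in 4, against 19.2% and 24.1% of all probesets. This comparison uses the same 3 control arrays as that of v-Src, so the counts of both lines are not independent of each other.

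The called falls were unequal between clusters. With v-Src, 3 of 16 Hoxa probesets were lower (18.8%), 8 of 11 Hoxb (72.7%), 9 of 11 Hoxc (81.8%) and 3 of 10 Hoxd (30.0%), with median log2 fold changes of 0.02, -1.24, -1.32 and -0.17. With STAT3-C, 2 Hoxa probesets were lower and 2 higher, 8 Hoxb, 8 Hoxc and 3 Hoxd probesets were lower, and the medians were 0.02, -1.17, -1.10 and -0.27. Among all probesets, v-Src cells had 8.1% called lower, and STAT3-C cells 8.58% lower and 9.68% higher. The Hoxa shares in STAT3-C cells were 12.5% lower and 12.5% higher. Above background in no line were 9 of 16 Hoxa, 7 of 11 Hoxb, 4 of 11 Hoxc and 9 of 10 Hoxd probesets. A fall can be missed in such probesets, although 9 of these 29 were called lower in v-Src cells and 8 in STAT3-C cells. The difference between clusters was not tested. By position within the clusters, paralog groups 1 to 4 had 5 of 16 probesets lower in v-Src cells and 5 in STAT3-C cells, groups 5 to 8 had 9 and 8 of 15, and groups 9 to 13 had 9 and 8 of 17.

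**Figure D2:**
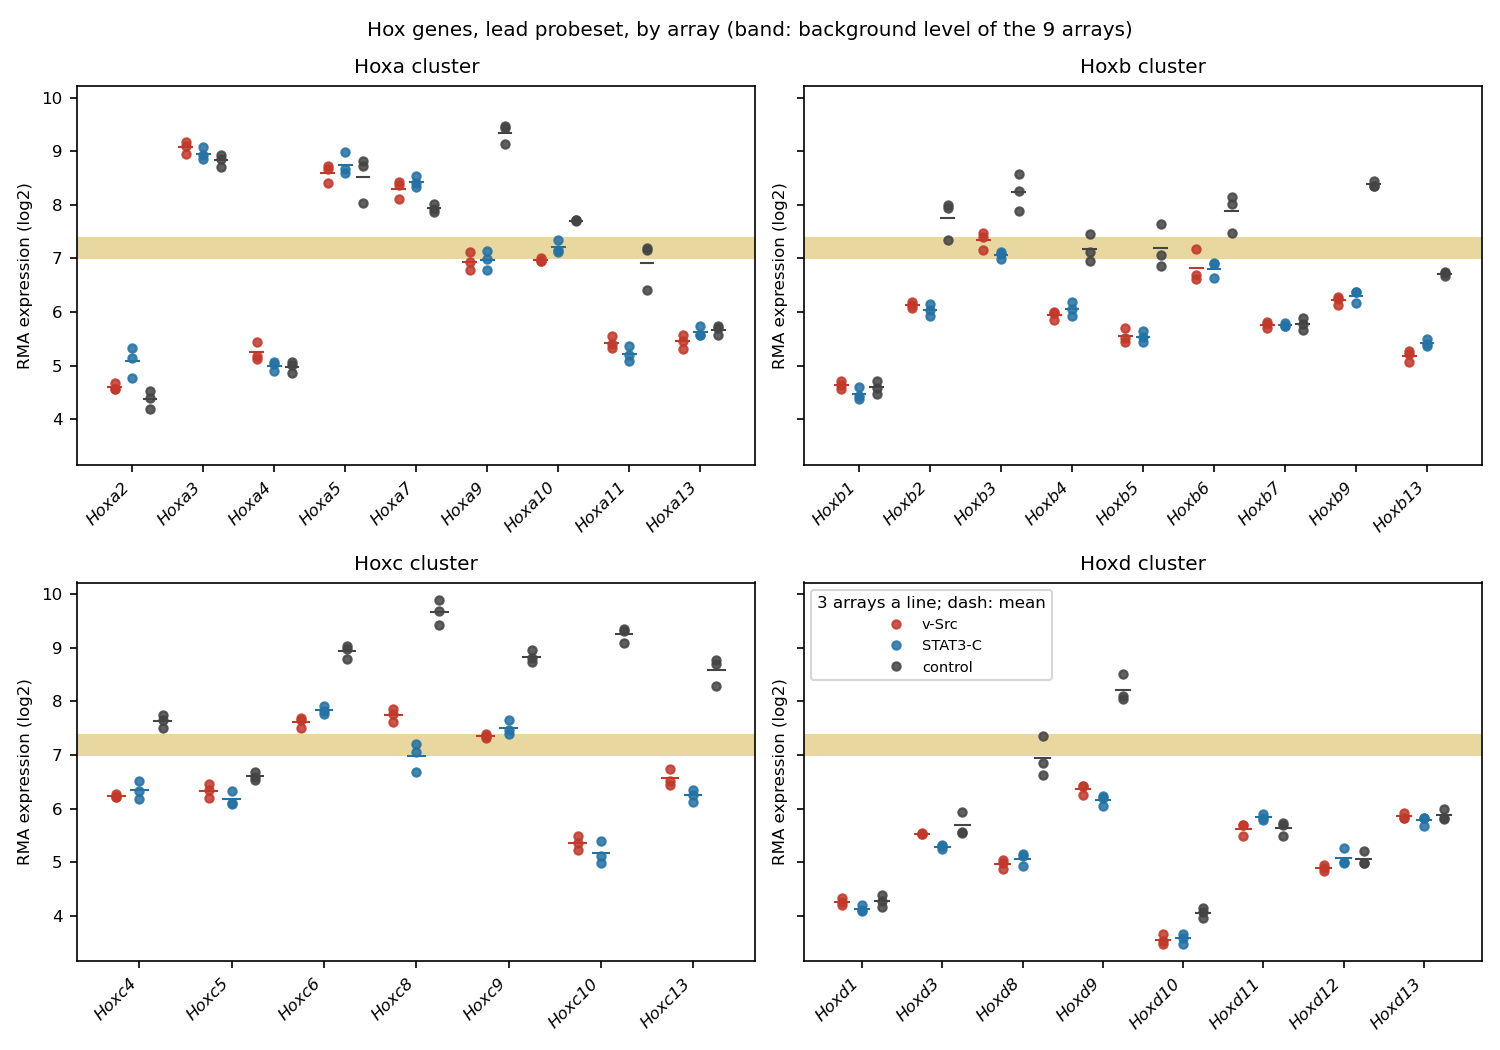
RMA expression (log2) of each Hox gene by its highest probeset, with 1 point per array, a dash for the mean of 3 arrays, and v-Src, STAT3-C and control cells side by side from left to right. The band marks the background levels of the 9 arrays (7.01 to 7.38), and Hoxc10 lay above 9 in every control array and at or below 5.49 in every array of the transfected lines.

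**Figure D3:**
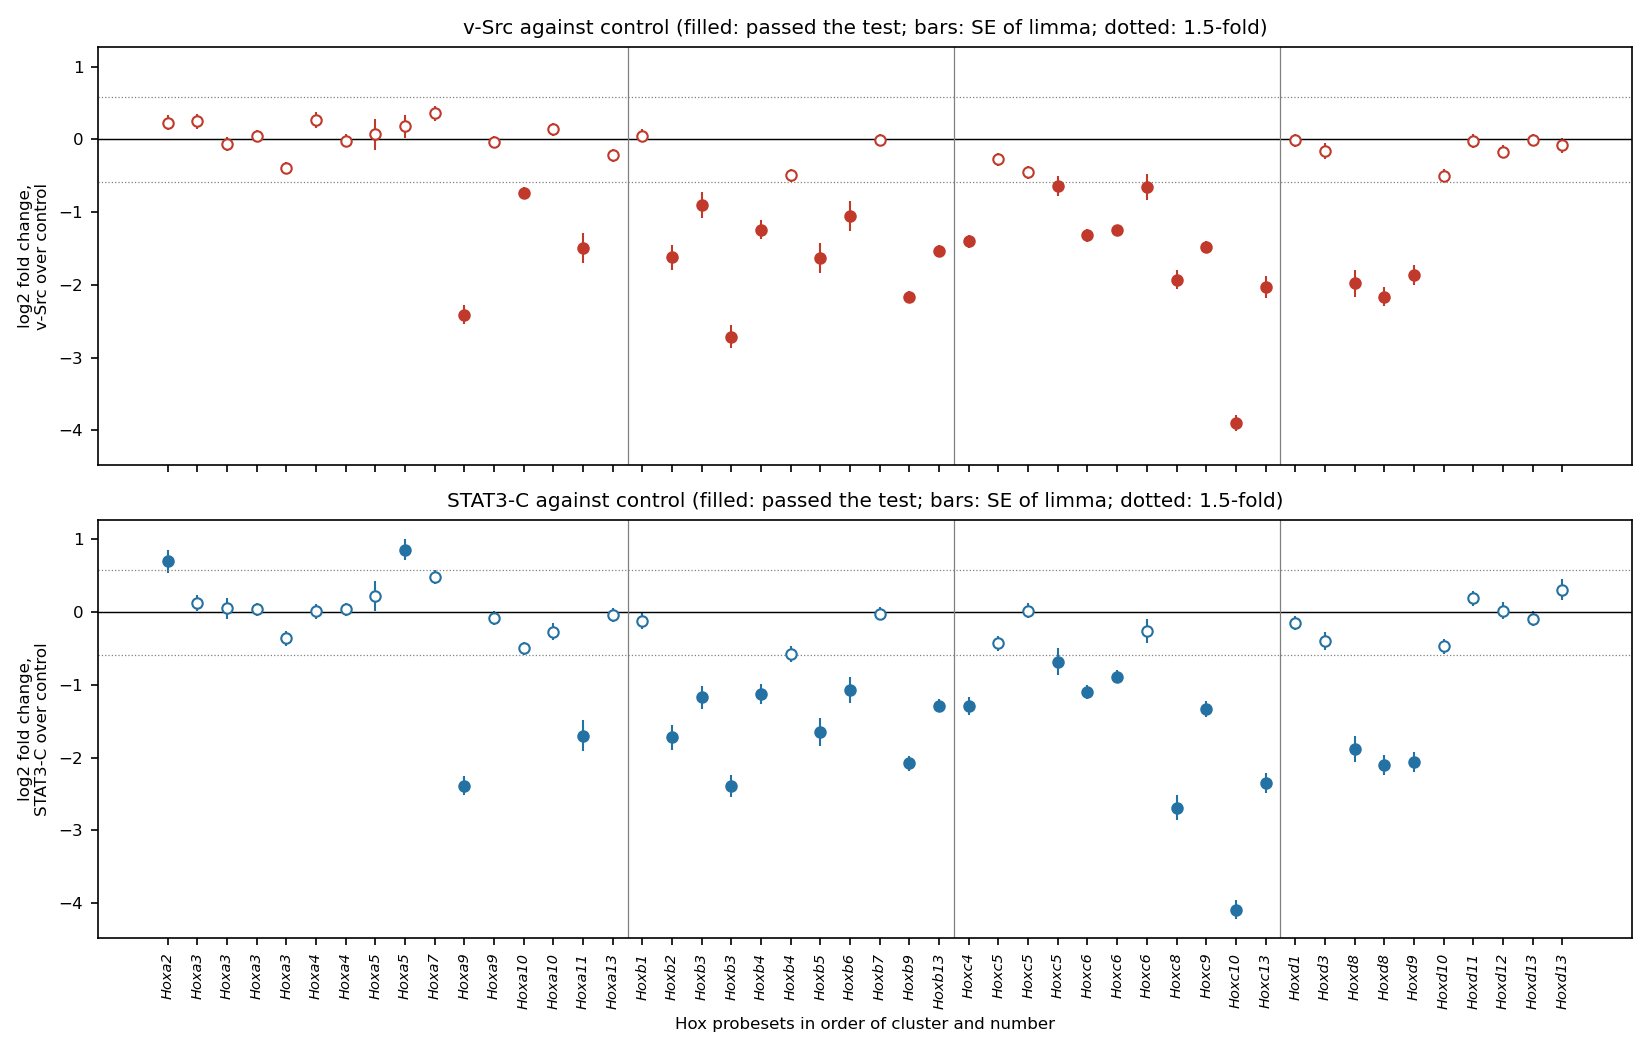
Log2 fold change of every Hox probeset in v-Src against control and in STAT3-C against control cells, with error bars of 1 standard error from limma, grouped by cluster, filled points for called probesets and dotted lines at a fold of 1.5. Points stand at fitted values, which give no size where a line was below background, and 13 of the 16 Hoxa probesets were not called with v-Src and 12 with STAT3-C.

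Promoter sequence was at hand for 19 of the member genes (21 windows), from RefSeq with the GRCm38.p6 build, each window running from 250 bases before to 50 after the start. Only 6 of the 18 genes with a probeset lower in both lines had a window, and sequence outside the windows was not searched. The motif counts therefore do not speak for most of the genes that fell. STAT dimers bind palindromes of TT and AA held apart by a few bases, and the tightest form searched, TTCNNNGAA on both strands (it is its own reverse complement), was in 8.3% of all 32851 windows and in 0 of the 21 Hox windows. Every match to that motif is also a match to the loose form TTNNNNNAA. Matches to the 3 loose forms can overlap one another and are common. TTNNNNAA was in 61.5% of all windows and in 16 Hox windows, TTNNNNNAA in 59% and 16, and TTNNNNNNAA in 58.5% and 15. The Hox and Pbx form TGATTNAT, searched on both strands, was in 3.22% of all windows and in 2 Hox windows. Hox windows had a median of 15 CpG sites and 58% GC, against 7 and 52.7% over all windows. The windows printed here are those of Hoxa5, the member above background that was higher with STAT3-C on 1 of its 2 probesets, and of Hoxa9, Hoxb4, Hoxc4 and Hoxd9, a member of each cluster that was called lower in both lines. For Hoxa9 and Hoxb4 this held for 1 of 2 probesets. Capitals mark matches to the 3 loose forms, and a match is a run of letters and not a bound site.
Hoxa5 promoter (chr6:52204538-52204837, minus strand): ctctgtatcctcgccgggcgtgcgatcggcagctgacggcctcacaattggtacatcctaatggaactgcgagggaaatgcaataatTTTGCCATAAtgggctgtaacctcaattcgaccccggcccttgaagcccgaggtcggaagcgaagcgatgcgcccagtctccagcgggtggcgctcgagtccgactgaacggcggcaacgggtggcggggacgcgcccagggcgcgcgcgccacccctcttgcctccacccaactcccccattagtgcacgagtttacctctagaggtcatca
Hoxa9 promoter (chr6:52227321-52227620, minus strand): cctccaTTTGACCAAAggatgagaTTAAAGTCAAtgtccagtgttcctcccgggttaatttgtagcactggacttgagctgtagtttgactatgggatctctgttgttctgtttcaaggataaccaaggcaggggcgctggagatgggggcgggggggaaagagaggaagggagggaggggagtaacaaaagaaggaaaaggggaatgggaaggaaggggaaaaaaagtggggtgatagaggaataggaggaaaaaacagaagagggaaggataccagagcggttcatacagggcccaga
Hoxb4 promoter (chr11:96318017-96318316, plus strand): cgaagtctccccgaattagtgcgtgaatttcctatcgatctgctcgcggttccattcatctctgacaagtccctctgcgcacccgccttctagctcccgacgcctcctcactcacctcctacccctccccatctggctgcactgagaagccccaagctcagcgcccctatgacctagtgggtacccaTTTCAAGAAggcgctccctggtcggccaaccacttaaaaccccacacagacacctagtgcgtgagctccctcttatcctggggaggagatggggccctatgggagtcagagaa
Hoxc4 promoter (chr15:103034145-103034444, plus strand): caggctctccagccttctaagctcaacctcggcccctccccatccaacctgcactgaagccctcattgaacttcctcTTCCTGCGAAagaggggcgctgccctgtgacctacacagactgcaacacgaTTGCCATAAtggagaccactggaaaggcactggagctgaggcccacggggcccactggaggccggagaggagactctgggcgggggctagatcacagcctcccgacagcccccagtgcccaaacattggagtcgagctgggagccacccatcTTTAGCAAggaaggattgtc
Hoxd9 promoter (chr2:74697513-74697812, plus strand): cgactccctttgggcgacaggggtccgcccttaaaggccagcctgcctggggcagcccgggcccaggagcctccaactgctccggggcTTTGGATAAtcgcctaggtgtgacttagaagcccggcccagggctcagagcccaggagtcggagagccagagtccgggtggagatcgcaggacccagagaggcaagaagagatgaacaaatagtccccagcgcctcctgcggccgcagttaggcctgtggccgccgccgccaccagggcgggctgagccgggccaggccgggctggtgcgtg

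Of the Hoxa genes above background in control cells, Hoxa9 and Hoxa10 were called lower in a transfected line and Hoxa3, Hoxa5 and Hoxa7 were not. Hoxa3, which patterns the pharyngeal arches and the thymus, measured 9.11, 8.96 and 9.17 in v-Src arrays and 8.86, 9.09 and 8.93 in STAT3-C arrays, against 8.94, 8.86 and 8.70 in control arrays (1452421_at, log2). It was not called in either line, with a difference of 0.25 for v-Src (95% interval 0.02 to 0.48) and of 0.13 for STAT3-C (-0.12 to 0.37). The other 3 Hoxa3 probesets and both of Hoxa4 were not above background and were not called. Hoxa7, a trunk-level gene, measured 8.42, 8.38 and 8.11 in v-Src arrays and 8.41, 8.33 and 8.54 in STAT3-C arrays, against 7.87, 7.93 and 8.02 in control arrays. All arrays of the transfected lines lay above the control arrays, but the log2 differences of 0.36 (adjusted p = 0.0366) and 0.48 (adjusted p = 0.00642) were under the fold threshold.

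Hoxa5, needed for lung and axial skeleton, was read by a pair of probesets that disagreed. Probeset 1448926_at measured 8.0, 8.0 and 7.78 in v-Src arrays and 8.61, 8.70 and 8.53 in STAT3-C arrays, against 7.92, 7.40 and 7.93 in control arrays. It was higher with STAT3-C by 0.86 on the log2 scale (SE 0.15, adjusted p = 0.00335) and not called with v-Src (0.18, SE 0.16). Probeset 1443803_x_at measured 8.67, 8.72 and 8.41 in v-Src arrays and 8.59, 8.99 and 8.68 in STAT3-C arrays, against 8.73, 8.82 and 8.04 in control arrays, and was called in neither line. Its v-Src difference of 0.07 (95% interval -0.42 to 0.57) became -0.17 and its STAT3-C difference of 0.22 (-0.26 to 0.71) became -0.02 without control replicate 3, the low array. Hoxa2, a hindbrain and second-arch gene, was also higher with STAT3-C (adjusted p = 0.0119), at 4.67, 4.57 and 4.57 in v-Src arrays and 5.14, 5.33 and 4.76 in STAT3-C arrays, against 4.53, 4.40 and 4.19 in control arrays. It was below background in all 3 lines, so no fold is given. The call was lost without STAT3-C replicate 1 (adjusted p = 0.0543) or 2 (adjusted p = 0.0392, under the fold threshold).

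Hoxa9, a posterior gene also known for its part in leukaemia, depended on the probeset. Probeset 1455626_at measured 6.93, 7.12 and 6.78 in v-Src arrays and 7.14, 6.99 and 6.78 in STAT3-C arrays, against 9.44, 9.14 and 9.47 in control arrays. It was not above background in either transfected line by the rule, with 1 of 3 arrays above it in each, and so was at least 4.64-fold lower with v-Src (adjusted p = 2.93e-05) and at least 4.62-fold lower with STAT3-C (adjusted p = 1.19e-05). Such bounds set the dim line at the array's background level wherever its own value was below it. Probeset 1421579_at measured 7.60, 7.71 and 7.50 in v-Src arrays and 7.40, 7.61 and 7.67 in STAT3-C arrays, against 7.64, 7.68 and 7.59 in control arrays, close above background in all 9. Its differences were -0.03 with v-Src (95% interval -0.23 to 0.16) and -0.08 with STAT3-C (-0.31 to 0.16). Which transcripts these probesets read was not examined.

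Hoxa10, which patterns the uterus and the hind limb, measured 6.96, 6.96 and 7.01 in v-Src arrays and 7.34, 7.16 and 7.12 in STAT3-C arrays, against 7.70, 7.71 and 7.71 in control arrays (1431475_a_at). It was at least 1.49-fold lower with v-Src (adjusted p = 0.000287). With STAT3-C, where 2 of 3 arrays were above background, its log2 difference of -0.50 (adjusted p = 0.00448) was under the fold threshold. Hoxa11, a limb and uterus gene, was called lower in both lines but was above background in only 1 of the 3 control arrays: it measured 5.55, 5.41 and 5.33 in v-Src arrays and 5.09, 5.20 and 5.37 in STAT3-C arrays, against 7.19, 6.41 and 7.15 in control arrays (adjusted p = 0.00189 and 0.000534). Hoxa10 1446408_at and Hoxa13, the distal limb gene, were below background and not called.

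Of the 11 Hoxb probesets, 8 were lower in each transfected line and 4, of Hoxb3, Hoxb6 and Hoxb9, were above background in control cells. Hoxb9, a thoracic-level gene, measured 6.14, 6.28 and 6.24 in v-Src arrays and 6.37, 6.37 and 6.17 in STAT3-C arrays, against 8.35, 8.35 and 8.45 in control arrays. It was at least 2.38-fold lower with v-Src (adjusted p = 5.73e-06) and at least 2.43-fold lower with STAT3-C (adjusted p = 4.7e-06). Hoxb3, a hindbrain and neck gene, fell on both probesets. On 1427605_at it measured 7.48, 7.15 and 7.40 in v-Src arrays and 6.99, 7.13 and 7.09 in STAT3-C arrays, against 8.57, 7.89 and 8.26 in control arrays, a log2 difference of -0.90 in v-Src cells (SE 0.18, adjusted p = 0.00854) and a fall of at least 2.21-fold with STAT3-C (adjusted p = 0.00106, 1 of 3 arrays above background). The v-Src arrays of this probeset stayed above background while the STAT3-C line did not. On 1456229_at it measured 5.58, 5.28 and 5.70 in v-Src arrays and 5.99, 5.86 and 5.66 in STAT3-C arrays, against 8.46, 7.97 and 8.27 in control arrays, at least 2.14-fold and 2.19-fold lower (adjusted p = 4.53e-05 and 1.93e-05).

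Hoxb6, expressed in lateral and limb mesoderm, showed more spread. It measured 6.69, 7.17 and 6.61 in v-Src arrays and 6.89, 6.63 and 6.91 in STAT3-C arrays, against 8.01, 7.48 and 8.15 in control arrays, at least 1.65-fold lower with v-Src (adjusted p = 0.00923) and 1.72-fold with STAT3-C (adjusted p = 0.00245). Among its v-Src arrays replicate 5 alone was above background, and no array of a transfected line reached the lowest control array. Hoxb2, a hindbrain gene, was above background in 2 of 3 control arrays, at 6.14, 6.19 and 6.08 in v-Src arrays and 6.03, 5.93 and 6.15 in STAT3-C arrays, against 7.99, 7.34 and 7.95 in control arrays (adjusted p = 0.000535 and 0.000212). Hoxb4, which expands blood stem cells when overexpressed, and Hoxb5, a neck-level gene, were above it in 1 control array each and were called lower in both lines (adjusted p = 0.000582 and 0.00102 with v-Src, 0.00062 and 0.000424 with STAT3-C). Hoxb13, a tail-bud and prostate gene, was below background throughout yet called lower, at 5.22, 5.27 and 5.07 in v-Src arrays and 5.41, 5.36 and 5.50 in STAT3-C arrays, against 6.72, 6.68 and 6.75 in control arrays (adjusted p = 2.99e-05 and 2.88e-05). Hoxb1, Hoxb7 and Hoxb4 1451761_at were not called.

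Of the Hoxc genes, Hoxc4, Hoxc10 and Hoxc13 were above background in control cells only. Hoxc10, a lumbar and hind limb gene, measured 5.49, 5.36 and 5.22 in v-Src arrays and 4.99, 5.39 and 5.11 in STAT3-C arrays, against 9.32, 9.09 and 9.35 in control arrays. Both transfected lines were below background, so the falls were at least 4.37-fold with v-Src (adjusted p = 1.98e-06) and at least 4.46-fold with STAT3-C (adjusted p = 6.95e-07). Hoxc13, the hair follicle and nail gene, measured 6.73, 6.52 and 6.44 in v-Src arrays and 6.25, 6.13 and 6.35 in STAT3-C arrays, against 8.78, 8.70 and 8.29 in control arrays. It was at least 2.75-fold lower with v-Src (adjusted p = 0.00011) and at least 2.81-fold lower with STAT3-C (adjusted p = 1.84e-05). Hoxc4, the cluster's most anterior gene, measured 6.22, 6.21 and 6.27 in v-Src arrays and 6.33, 6.18 and 6.51 in STAT3-C arrays, against 7.74, 7.50 and 7.66 in control arrays, at least 1.42-fold and 1.45-fold lower (adjusted p = 5.62e-05 and 0.000123). In none of these genes did the arrays of a transfected line overlap the control arrays.

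Hoxc6, Hoxc8 and Hoxc9, trunk-level genes, were lower without falling to background in v-Src cells. Hoxc6 1427362_x_at measured 7.65, 7.70 and 7.50 in v-Src arrays and 7.83, 7.76 and 7.92 in STAT3-C arrays, against 8.98, 8.80 and 9.03 in control arrays, with log2 fold changes of -1.32 (SE 0.09, adjusted p = 0.000105) and -1.10 (SE 0.10, adjusted p = 0.000123). Its second probeset above background, 1427361_at, measured 7.57, 7.63 and 7.51 in v-Src arrays and 7.94, 7.90 and 7.94 in STAT3-C arrays, against 8.86, 8.70 and 8.90 in control arrays, changes of -1.25 (adjusted p = 7.73e-05) and -0.89 (adjusted p = 0.000229). Both probesets thus stayed above background by the rule in each transfected line. They lay below the 99th percentile of the receptor probesets, which was 8.21 to 8.58 in those arrays. Hoxc9 measured 7.35, 7.40 and 7.31 in v-Src arrays and 7.40, 7.46 and 7.65 in STAT3-C arrays, against 8.74, 8.81 and 8.96 in control arrays, with changes of -1.48 (SE 0.08, adjusted p = 3.88e-05) and -1.33 (SE 0.11, adjusted p = 6.85e-05).

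Hoxc8, a lower thoracic gene, measured 7.77, 7.61 and 7.85 in v-Src arrays and 7.06, 7.20 and 6.68 in STAT3-C arrays, against 9.69, 9.42 and 9.90 in control arrays. Its log2 fold change was -1.93 in v-Src cells (SE 0.13, adjusted p = 9.12e-05) and was at least 5.76-fold lower with STAT3-C (adjusted p = 2.12e-05), where 2 of 3 arrays were above background. The third Hoxc6 probeset and Hoxc5 were the weakest calls of the cluster. Hoxc6 1427454_at was called lower with v-Src only (adjusted p = 0.0319), at 6.42, 6.39 and 6.22 in v-Src arrays against 6.76, 6.80 and 7.41 in control arrays, and lost the call without control replicate 3 (adjusted p = 0.0184, under the fold threshold) or without v-Src replicate 1, 5 or 6 (adjusted p = 0.0775, 0.0724 and 0.104). Hoxc5 1450832_at, below background throughout, was called lower in both lines (adjusted p = 0.0137 and 0.0256). It lost the v-Src call without control replicate 3 (adjusted p = 0.037, under the fold threshold) or v-Src replicate 1 (adjusted p = 0.0518), and the STAT3-C call without control replicate 1 or 3 (adjusted p = 0.0747 and 0.0904) or STAT3-C replicate 1 or 2 (adjusted p = 0.103 and 0.0871). The other 2 Hoxc5 probesets were not called.

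Hoxd9, which acts in the limb and the lumbar spine, was the only Hoxd member above background in a line, and that line was the control. It measured 6.42, 6.42 and 6.25 in v-Src arrays and 6.20, 6.24 and 6.05 in STAT3-C arrays, against 8.04, 8.52 and 8.10 in control arrays, at least 2.13-fold lower with v-Src (adjusted p = 0.00012) and at least 2.17-fold lower with STAT3-C (adjusted p = 3.14e-05). Hoxd8, its neighbour, was called lower on both probesets although neither was above background in control cells. On 1431099_at it measured 5.03, 4.99 and 4.87 in v-Src arrays and 5.15, 4.93 and 5.11 in STAT3-C arrays, against 6.85, 7.36 and 6.62 in control arrays (adjusted p = 0.000285 and 0.000166). Hoxd1, Hoxd3, Hoxd10, Hoxd11, Hoxd12 and Hoxd13, which include the digit-forming genes at the cluster's end, were below background in all 3 lines and were not called. In all, 9 of the 23 probesets lower with v-Src and 8 of the 21 lower with STAT3-C were not above background in control cells by the rule.

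Set against each other, v-Src and STAT3-C cells differed in 2 of 48 Hox probesets, 1 higher and 1 lower in v-Src cells, against 10.3% of all probesets called (4.99% higher and 5.33% lower). The methods describe separate RMA runs for the v-Src and the STAT3-C arrays. If the deposited columns come from those runs, line and run cannot be told apart in this comparison. Hoxc8 was higher in v-Src cells by 0.76 on the log2 scale (SE 0.14, adjusted p = 0.00987), at least 1.51-fold. Hoxa5 1448926_at was lower in v-Src cells (log2 difference -0.68, adjusted p = 0.00308), with all v-Src arrays below all STAT3-C arrays. Among the other 46 probesets the log2 differences lay between -0.47 and 0.41, with standard errors of 0.07 to 0.17, and their 95% intervals reached from -0.81 to 0.67. All v-Src arrays lay above all STAT3-C arrays in 7 of the 48 probesets and below them in 10, which was so for 19.1% and 18.7% of all probesets.

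Of the TALE cofactors, 10 of 11 listed genes were measured, and v-Src cells had 2 higher and 2 lower, STAT3-C cells 2 higher and 1 lower. Over all genes, by 1 probeset each, 19.9% were called in either direction in v-Src cells and 22.2% in STAT3-C cells. Meis2, a Hox and Pbx partner, measured 8.63, 8.54 and 8.80 in v-Src arrays and 10.23, 10.72 and 10.08 in STAT3-C arrays, against 7.92, 7.49 and 7.79 in control arrays. Its log2 fold change was 0.92 with v-Src (adjusted p = 0.00192) and 2.61 with STAT3-C (adjusted p = 3.73e-05), and the difference of v-Src from STAT3-C cells was -1.69 (adjusted p = 0.000998). These values are of the highest of its 4 probesets, and in none of the comparisons were all of them called. Pbx3 was lower, at -0.64 in each line (adjusted p = 0.00834 and 0.00539), but its second probeset was called lower with v-Src only. Meis1 was higher with STAT3-C by 0.71 (adjusted p = 0.0188) on its highest probeset, and its other probesets were not called. Tgif1, a repressor that competes with Meis proteins, was higher with v-Src by 0.91 (adjusted p = 0.000398), and Tgif2, not above background in any line, was called lower with v-Src (adjusted p = 0.001). The second Tgif2 probeset was not called.

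Among Polycomb genes, 3 of 20 measured were lower in v-Src cells and 4 in STAT3-C cells, and 0 were higher in either. Their median log2 fold changes were -0.35 and -0.27, against 0.02 and 0.04 over all genes. Among all genes, v-Src cells had 10.4% called lower and 9.54% higher, and STAT3-C cells 10.3% and 11.9%. Whether the Polycomb counts exceed these shares was not tested. Each gene was counted by 1 probeset. Some genes not called by it, such as Mtf2 in STAT3-C cells, were called lower on other probesets. Ezh2, the H3K27 methyltransferase, had log2 fold changes of -1.20 (adjusted p = 0.0183) and -0.70 (adjusted p = 0.048), Rnf2, the H2A ubiquitin ligase, of -1.14 and -1.13 (adjusted p = 0.00115 and 0.000622), and Phc1 of -1.05 and -1.31 (adjusted p = 9.67e-05 and 0.000131). Rnf2 had 5 probesets, and in each line some of them were not called. Pcgf2 was at least 1.79-fold lower with STAT3-C, where it was not above background (adjusted p = 0.00215). Of 13 Trithorax-group genes and H3K27 demethylases, 1 was lower with v-Src, and 3 were higher and 4 lower with STAT3-C. Rbbp5, of the H3K4 methyltransferase complexes, changed by -0.59 and -0.78 (adjusted p = 0.00158 and 0.000758). Dpy30 and Ash2l, of the same complexes, were higher with STAT3-C by 1.18 and 0.92, and the methyltransferase Kmt2c was lower with it (-0.77, adjusted p = 0.00619). The second Ash2l probeset and the other Kmt2c probesets were not called with STAT3-C.

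Against control, 5 of 16 measured retinoic acid genes were called lower in v-Src cells and 3 in STAT3-C cells, and 0 were higher in either. The share of all genes called lower was 10.4% with v-Src and 10.3% with STAT3-C, and 9.54% and 11.9% were called higher. Aldh1a1, which makes retinoic acid from retinaldehyde, measured 8.52, 5.68 and 6.59 in v-Src arrays and 7.84, 9.11 and 6.79 in STAT3-C arrays, against 11.66, 12.36 and 11.96 in control arrays, at least 21.6-fold lower with v-Src (adjusted p = 0.00126, 1 of 3 arrays above background) and at least 15.5-fold lower with STAT3-C (adjusted p = 0.000567, 2 of 3 arrays above background). The arrays of each transfected line differed by more than 2 log2 units, and none reached the control arrays. Crabp1, a retinoic acid binding protein, measured 4.65, 4.68 and 4.73 in v-Src arrays and 4.99, 5.03 and 4.92 in STAT3-C arrays, against 8.18, 7.72 and 9.17 in control arrays. It was not above background in either transfected line and was at least 2.34-fold and 2.39-fold lower (adjusted p = 0.000266 and 0.000143). Dhrs3 and Rdh10, which interconvert retinol and retinaldehyde, were lower with v-Src, Dhrs3 by at least 1.80-fold to below background (adjusted p = 0.00765) and Rdh10 with a log2 fold change of -0.80 (adjusted p = 0.0263), and Cyp26b1, which degrades retinoic acid, was lower with STAT3-C (-1.03, adjusted p = 0.000519).

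Inside the clusters, 3 of 14 listed noncoding transcripts had a probeset. Hoxb5os, antisense to Hoxb5, measured 6.72, 6.90 and 6.45 in v-Src arrays and 7.15, 6.72 and 7.07 in STAT3-C arrays, against 9.89, 9.81 and 9.92 in control arrays, at least 6.70-fold lower with v-Src (adjusted p = 7.66e-06) and at least 6.62-fold lower with STAT3-C (adjusted p = 3.79e-06). It was above background in 0 v-Src arrays and in 1 of 3 STAT3-C arrays. Hoxa11os, antisense to Hoxa11, was called lower in both lines (adjusted p = 0.000433 and 0.000207) while below background in all 3. Of 14 measured genes that neighbour the clusters, 2 were lower with v-Src and 0 higher, and 2 were lower and 3 higher with STAT3-C. The shares over all genes, by 1 probeset each, were 10.4% lower and 9.54% higher with v-Src, and 10.3% lower and 11.9% higher with STAT3-C. Hibadh, a valine-breakdown enzyme next to Hoxa, was lower in both lines (-1.28 and -1.47), Cbx1, a heterochromatin protein beside Hoxb, was lower with v-Src (-1.41), and Mtx2, a mitochondrial protein beside Hoxd, was higher with STAT3-C (0.79). The Cbx1 value is of its highest probeset. Some of its other probesets were called lower with STAT3-C too, and some were not called with v-Src. The 8 ParaHox, Cdx and Evx genes, close relatives of the Hox family, were below background in all lines and none was called.

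**Figure D4:**
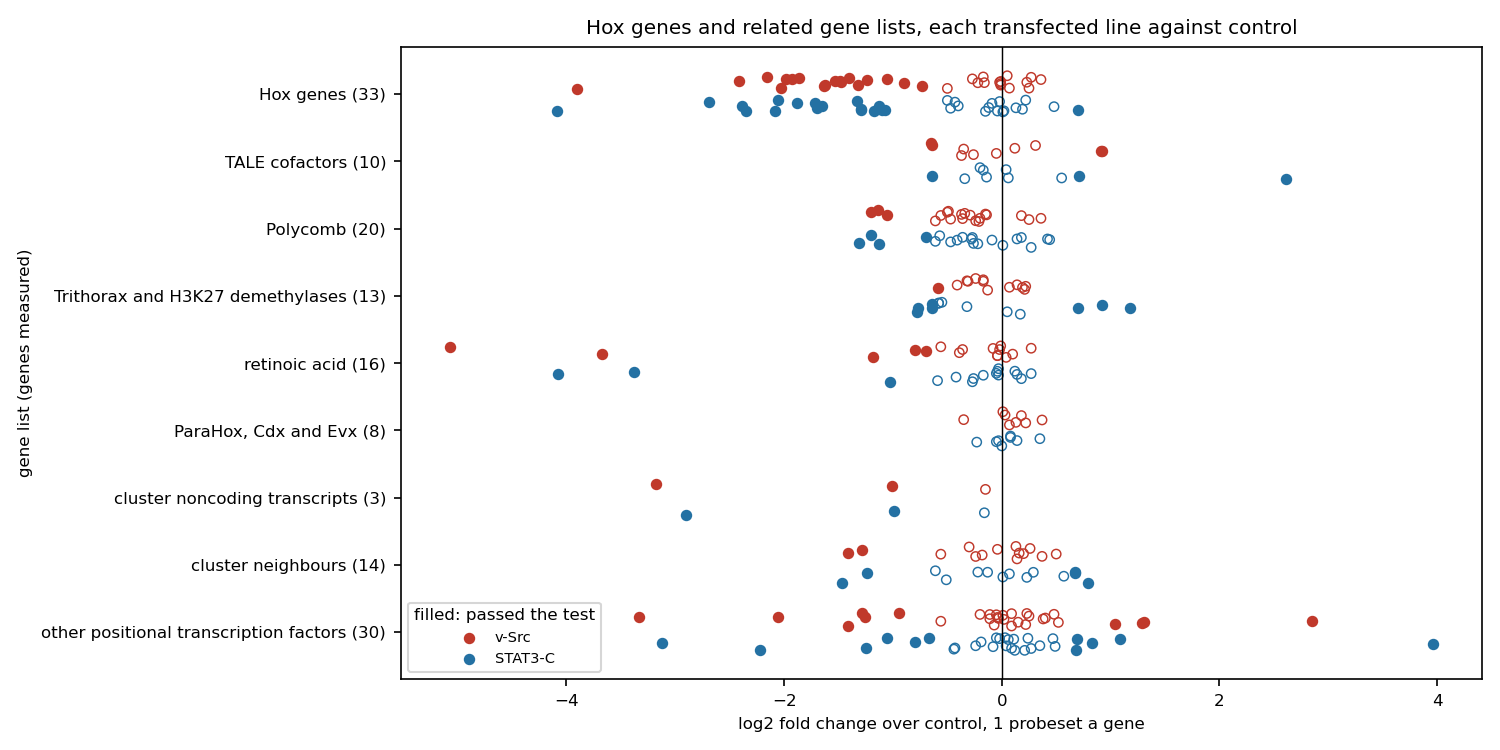
Log2 fold change of each measured gene of the Hox family and the related lists, v-Src against control above STAT3-C against control in each list, with 1 point per gene by its highest probeset and filled points for genes that were called. Meis2 reached 2.61 with STAT3-C, and points stand at fitted values, which give no size where a line was below background.

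The fibroblast label was checked on 13 markers, all above background in control cells, 10 in v-Src cells and 11 in STAT3-C cells. Thy1 and Lum were not above background in either transfected line, and Pdgfrb was not in v-Src cells. The mean log2 level of the markers was 10.08 to 10.52 in v-Src arrays and 10.34 to 10.48 in STAT3-C arrays, against 11.60 to 11.75 in control arrays, and 7 of the 13 were called lower in each line, against 10.4% of all genes with v-Src and 10.3% with STAT3-C. S100a4 was called higher in both lines (0.65 and 0.89 on the log2 scale) and Fn1 with v-Src (1.13). These changes moved with those of the Hox genes, and their part in the Hox result was not tested. Markers of other cell types were few: 1 of 10 epithelial markers (Epcam) was above background in every line, 1 of 5 mesothelial markers (Msln) in each transfected line and 0 in control cells, 0 of 6 endothelial markers in any line, 2 of 6 neural markers in each line, and of 7 macrophage and leukocyte markers 2 in v-Src cells and 3 in STAT3-C cells against 2 in control cells. Msln was at least 6.61-fold higher with v-Src and at least 15.2-fold higher with STAT3-C. Cd14, a monocyte marker, was higher by 2.12 on the log2 scale in each line (adjusted p = 0.000136 and 0.000202), and Cd68, a macrophage marker, was at least 1.33-fold higher with STAT3-C (adjusted p = 0.0108). Ptprc, the pan-leukocyte marker, was not above background in any line. The part of these genes in the Hox result was not tested either.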

How the data were processed

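Total RNA of 9 cultures was hybridised to Affymetrix mouse whole-genome expression arrays, 3 per line. The deposited values are log2 expression that the authors made with RMA. Per the methods, RMA was run separately on v-Src plus control arrays and on STAT3-C plus control arrays, and from which run the deposited control columns come is not given in the sources used here. The RMA version is not given either. Of 45101 probesets, 64 array controls were left out, 34945 of the rest had 1 symbol, 932 several and 9160 none, and 34741 were matched to RefSeq by gene number. Lines and replicate numbers came from the sample labels. Each pair of lines was fitted with limma 3.58.1 (lmFit and eBayes, R 4.3.3, 6 arrays a fit), with Benjamini-Hochberg adjustment over 45037 probesets, and the code was tested on simulated data. The study's SAM, other thresholds, filters, normalizations and background levels, and leaving out each array, were alternatives. Precision is limited by the 3 arrays a line. All Hox probesets were named; of each other list the up to 4 called genes with the largest change were eligible. The Hox members and gene lists were chosen with earlier results of these data known. Figures used matplotlib 3.10.9.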

Additional observations from a re-analysis of the deposited data

Results flagged for a closer look

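The 2 transfected lines differed in 2 Hox probesets by their direct comparison. With 1 line for each transgene, this tests a difference between lines and not between transgenes. A difference between RMA runs cannot be told apart from it if the columns of these lines come from separate runs. Hoxa5 1448926_at was lower in v-Src cells, with a log2 difference from STAT3-C cells of -0.68, with 0.18 for v-Src against control and 0.86 for STAT3-C against control. The second Hoxa5 probeset did not show this. Hoxc8 1452412_at was higher in v-Src cells, with a log2 difference from STAT3-C cells of 0.76, with -1.93 for v-Src against control and -2.69 for STAT3-C against control.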

How the results depend on the processing

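Hox calls numbered 23 for v-Src against control (21 to 23 with 1 array left out) and 23 for STAT3-C against control (21 to 24). Neither count moved by over 1.5 times under any alternative run. v-Src against STAT3-C gave 2 calls (2 to 3 with 1 array left out), 0 at a fold of at least 2 and 7 with no fold threshold. Background counts depended on the level chosen. v-Src cells had 10 Hox probesets above it (10 to 10 with 1 array left out), 2 at the 99th percentile of the receptor probesets and 37 at the lower quartile of all probesets. STAT3-C cells had 8 (8 to 10), 13 at the 90th percentile, 4 at the 99th, 34 at the lower quartile and 15 at the median of all probesets. Control cells had 19 (19 to 20), 8 at the 99th percentile, 40 at the lower quartile and 29 at the median. The control count was the highest of the 3 lines at every level run. Replicate numbers of STAT3-C and control arrays did not pair them (correlations -0.093, 0.065 and 0.045), and with the replicate block 23 Hox probesets were called, the same 23. v-Src arrays share only number 1 with control arrays, so no block was fitted. Fold changes were followed for 28 Hox probesets in each comparison with control and 19 between v-Src and STAT3-C cells, those called or above background, and among these the sign turned for 7 differences, none of them called. With 1 array left out, Hoxa5 1443803_x_at lay between -0.17 (without control replicate 3) and 0.22 for v-Src and between -0.02 (without control replicate 3) and 0.37 for STAT3-C. Hoxa9 1421579_at lay between -0.09 and 0.02 (without v-Src replicate 6) for v-Src and between -0.13 and 0.01 (without STAT3-C replicate 1) for STAT3-C. Between v-Src and STAT3-C cells it lay between -0.04 (without STAT3-C replicate 1) and 0.10, Hoxa9 1455626_at between -0.12 and 0.06 (without STAT3-C replicate 1 or v-Src replicate 6), and Hoxb6 was at -0.01 after median centring or a second quantile normalization and between -0.16 (without v-Src replicate 5) and 0.12 with 1 array left out. The cause was not tested.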

Other observations

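Other transcription factors that mark position in fibroblasts and limb mesenchyme, 30 of 33 listed genes, went both ways. v-Src cells had 4 higher and 6 lower, STAT3-C cells 5 higher and 6 lower, with medians of 0.01 and 0.05. Genome-wide, a rise was called for 9.54% of genes in v-Src cells and for 11.9% in STAT3-C cells. A fall was called for 10.4% and 10.3%. The matching genome-wide medians were 0.02 and 0.04. No test compared this list with those values. En1, which marks dorsal dermis, was not above background in any line by the rule and was called lower in both (adjusted p = 0.000423 and 0.000225), at 3.44, 3.48 and 3.40 in v-Src arrays and 3.69, 3.70 and 3.55 in STAT3-C arrays, against 7.06, 7.32 and 5.91 in control arrays. Emx2, a limb girdle and kidney gene, was above background in control cells alone and was at least 2.47-fold lower with v-Src (adjusted p = 5.13e-05) and 2.52-fold with STAT3-C (adjusted p = 0.000391). Tbx15, a limb and skin mesenchyme gene, changed by -1.41 and -1.25. Foxd1, a kidney stroma and dermis gene, was above background in the transfected lines and not in control cells, at least 1.39-fold higher with v-Src (adjusted p = 7.37e-06) and at least 3.01-fold higher with STAT3-C (adjusted p = 3.09e-06). Tbx3, a limb gene, was higher by 1.04 with v-Src (adjusted p = 0.000878) and lower with STAT3-C (log2 fold change -0.67, adjusted p = 0.00946), and v-Src cells exceeded STAT3-C cells by 1.71 (adjusted p = 0.000997). These values are of its highest probeset, and no other Tbx3 probeset was called with STAT3-C.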
